A study of Mus musculus with 4 samples.

Results

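Mcpt8, Gzme and Gzmd are 3 serine protease genes of immune-cell granules that were found at high level in cultured mouse myoblasts. They were chosen from these same data, out of 25804 gene symbols in the series, as genes found nearly only in the myoblast library. Their levels by library are therefore a description of that choice. Which cells of the myoblast culture carried them was not used in choosing them.

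The series holds single-cell RNA profiles of Pax7-nGFP mouse muscle cells, a strain whose nuclear GFP marks cells that express the satellite cell factor Pax7. Each of 4 groups is a single library made with 10x 3′ chemistry, which counts each captured transcript end as a unique molecular identifier (UMI). The MPC library holds cells of a 16-week male mouse kept for 2 passages in myoblast medium and then for 5 passages in MPC medium with Forskolin (5 µM), Repsox (5 µM) and CHIR (3 µM). The myoblast library holds passage 2 cells, also of a 16-week male, grown in DMEM and F10 with horse serum, FBS and basic FGF. The ASC library holds GFP+ cells sorted from 17 pooled tibialis anterior muscles of male and female mice of 18 to 24 weeks, 3 days after injury with cardiotoxin (10 µM). The fiSC library holds GFP+ cells sorted fresh from limb muscles of 3 pooled males of 13 weeks. With 1 library a group there are no replicates and no test. Intervals below are exact 95% intervals of the counting error alone, and library, animal and condition cannot be told apart.

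After removing low-quality barcodes and likely doublets, 9096 MPC, 2365 myoblast, 6446 ASC and 2192 fiSC cells remained, with median depths of 13236, 22911, 19810.5 and 8769 UMIs per cell. In the myoblast library 13 of 13 myogenic progenitor markers had a UMI, 11 of them at 10 CPM or more (the gene's UMIs per 1000000 UMIs). The other libraries gave 13 of 13 too, with 11 or 12 at that level, so these markers show myogenic cells and do not tell the myoblast library from the others. Myogenic progenitor-like clusters made up 1738 of the 2365 myoblast cells (73.5%) and muscle differentiation-like clusters 347 (14.7%). Of the GFP+ sorted ASC cells, 2657 (41.2%) were macrophage-like. Unnamed ASC cluster 6 (414 cells) also had macrophage as its highest marker list, with the macrophage marker Lyz2 at 13459.5 CPM, so that share may be too low. The MPC and myoblast libraries shared 164 cell barcodes, against 4 to 27 for every other pair of libraries. Of these 164, 14 were retained in MPC, with 0 UMIs of any of the 3 genes.

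Granzymes and the chymase-related mast cell proteases are serine proteases stored in the secretory granules of lymphocytes, mast cells and basophils, bound to the proteoglycan serglycin and activated by the dipeptidyl peptidase cathepsin C. Mcpt8 encodes a protease used as a marker of mouse basophils. Gzmd and Gzme encode granzymes of activated cytotoxic lymphocytes in the mouse, and belong to a rodent cluster of closely related granzyme genes. Part of these protease genes, with Mcpt8, Gzmd and Gzme among them, lie next to each other in the chymase locus on mouse chromosome 14.

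The promoters are shown because the 3 genes varied together between cells, and to show how alike Gzme and Gzmd are. Each line gives the 250 bases before the RefSeq transcription start on assembly GRCm38.p6, read 5′ to 3′ on the minus strand, at chr14:56085198-56085447 for Mcpt8, chr14:56120626-56120875 for Gzme and chr14:56132594-56132843 for Gzmd. Capitals mark CANNTG, the E-box core to which myogenic bHLH factors such as MyoD bind.
Mcpt8: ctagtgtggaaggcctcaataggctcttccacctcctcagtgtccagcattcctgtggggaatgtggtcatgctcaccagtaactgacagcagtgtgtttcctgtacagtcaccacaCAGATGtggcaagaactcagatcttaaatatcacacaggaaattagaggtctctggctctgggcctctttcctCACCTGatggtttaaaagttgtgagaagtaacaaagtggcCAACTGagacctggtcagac
Gzme: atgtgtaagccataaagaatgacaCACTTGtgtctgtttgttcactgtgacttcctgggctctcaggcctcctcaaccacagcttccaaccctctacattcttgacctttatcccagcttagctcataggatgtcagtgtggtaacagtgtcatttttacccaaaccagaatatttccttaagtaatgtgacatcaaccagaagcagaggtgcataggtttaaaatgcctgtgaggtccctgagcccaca
Gzmd: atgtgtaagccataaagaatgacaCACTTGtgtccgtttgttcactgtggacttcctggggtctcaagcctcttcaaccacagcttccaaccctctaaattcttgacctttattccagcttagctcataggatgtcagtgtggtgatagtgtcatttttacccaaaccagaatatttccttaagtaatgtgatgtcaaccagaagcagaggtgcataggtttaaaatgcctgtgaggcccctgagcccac

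The Gzmd and Gzme promoters were identical at 95.6% of 249 aligned bases, whereas those of Mcpt8 and Gzme matched at 62.6% of 211 aligned bases. Mcpt8 held 3 CANNTG matches, starting 133, 60 and 20 bases before its start, and Gzme and Gzmd held 1 each, 226 bases before theirs. Locus genes near 0 in myoblasts held it too: Ctsg had 4 matches, Gzmb 2, and Cma1, Mcpt9, Gzmc and Gzmf 1 each. CANNTG is its own reverse complement and occurred in 66.2% of the 32851 mouse promoters of the same length. CAGCTG, a form of CANNTG, was in none of the 3 promoters and in 13.0% of all. AACCACA, a form of the RUNX site, was searched on both strands. It was present 176 bases before the Gzme start and 175 bases before the Gzmd start but not in the Mcpt8 window. It was also in the promoters of Mcpt1, Mcpt4, Gzmg, Gzmf, Gzmc and Gzmb, which were near 0 in myoblasts, and in 4.40% of all promoters. Shorter forms were not counted, and the printed Mcpt8 window does hold ACCACA, so no contrast in RUNX sites is read from this. TGACGTCA, the cAMP response element, was in none of the 3 but in the Gzmg, Gzmf and Gzmc promoters, and in 1.55% of all. TGANTCA, the AP-1 core (6.75% of all), and AGATAA, a form of the GATA site (9.99%), had no match in the 3 windows. Other forms of the GATA site were not counted, and the shorter GATA, read on either strand, stands in each of the 3 windows.

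Mcpt8, whose product is the basophil protease, was the most abundant of the 3. Summed over retained cells, Mcpt8 (ENSMUSG00000022157) stood at 0.331 CPM in MPC (45 UMIs, 0.241 to 0.443) and 307 CPM in myoblasts (16946 UMIs, 303 to 312). In ASC it stood at 3.96 CPM (709 UMIs, 3.67 to 4.26), and fiSC had 0 UMIs, which allows up to 0.150 CPM. Mcpt8 was thus 929-fold lower in MPC than in myoblasts (694 to 1273), 77.6-fold higher in myoblasts than in ASC (72.0 to 83.8) and at least 2052-fold higher in myoblasts than in fiSC, taking 3 UMIs as the limit of a count of 0. The order was myoblast, ASC, MPC, fiSC, and no counting interval of a library overlapped the next.

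Gzme (ENSMUSG00000022156), a granzyme of activated lymphocytes, stood at 0.0515 CPM in MPC (7 UMIs, 0.0207 to 0.106), 110 CPM in myoblasts (6061 UMIs, 107 to 113), 0.262 CPM in ASC (47 UMIs, 0.193 to 0.349) and 0 UMIs in fiSC. It was 2135-fold lower in MPC than in myoblasts (1036 to 5312), 419-fold higher in myoblasts than in ASC (315 to 571) and at least 734-fold higher in myoblasts than in fiSC. Gzmd (ENSMUSG00000059256), its close relative, had 1 UMI in MPC, 54.9 CPM in myoblasts (3026 UMIs, 52.9 to 56.9), 0.0447 CPM in ASC (8 UMIs, 0.0193 to 0.0880) and 0 UMIs in fiSC. Its MPC-to-myoblast ratio was 0.000134 (3.39e-06 to 0.000747), and it was 1229-fold higher in myoblasts than in ASC (623 to 2848) and at least 366-fold higher in myoblasts than in fiSC. For Gzmd the MPC and ASC intervals overlapped, and the limit in fiSC lies above both levels. By a size rule of a 2-fold ratio of CPM plus 5 with at least 10 CPM in the higher group, all 3 genes were lower in MPC than in myoblasts, where 6.44% of 9466 measured genes were lower and 6.85% higher. All 3 were higher in myoblasts than in ASC, where 14.4% of 9488 genes were higher and 9.43% lower, and higher in myoblasts than in fiSC, where 27.7% of 9591 genes were higher and 17.8% lower. The genes were chosen on these contrasts, so nothing is read from these counts.

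**Figure D1:**
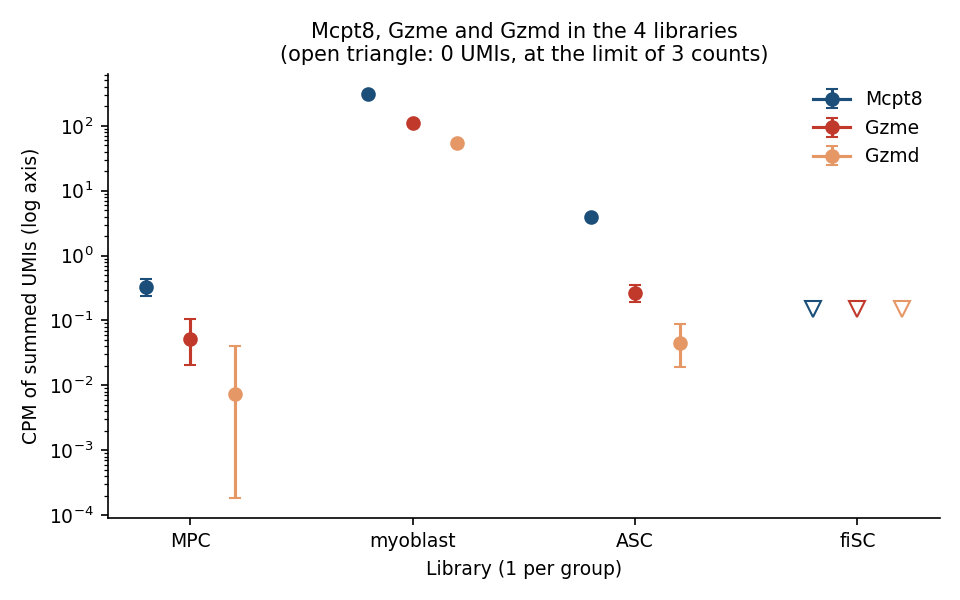
Summed expression of Mcpt8, Gzme and Gzmd in the MPC, myoblast, ASC and fiSC libraries, in CPM on a log axis, with exact 95% Poisson intervals; open symbols stand for 0 UMIs and are drawn at the limit of 3 counts. Myoblasts stand at 307, 110 and 54.9 CPM, and every other library is below 4 CPM.

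Gzmd and Gzme are near-identical copies, so the split of counts between them is uncertain. Their GENCODE M21 transcripts of 964 and 916 bases were 94.8% identical over 916 aligned bases, and their last 400 bases, where 3′ reads start, were 95.8% identical over 381. Only 5.98% of the 50-base words in those 400 bases of Gzmd occurred in Gzme. Counted separately, 6.27% occurred in Gzmf and 3.70% in Gzmg, relatives that held 3 UMIs and 1 UMI in myoblasts. The last 400 bases of Mcpt8 shared no 50-base word with any other gene of the locus.

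Within the myoblast library the genes were carried chiefly by Pax7-high progenitor-like cells. Mcpt8 was lowest in fibroblast-like cluster 10, unnamed cluster 8 and the myocyte cluster 3. Cells were thinned to 2000 UMIs each so that depth does not set the share with a UMI; 77 of the 2365 cells were shallower and were left out. At that depth 718 of 2288 cells had Mcpt8 (31.4%, 29.5 to 33.3), 344 had Gzme (15.03%, 13.6 to 16.6) and 180 had Gzmd (7.87%, 6.80 to 9.05). At full depth the shares were 71.1%, 52.6% and 31.1%. Among fibroblast-like myoblast cells, taken as the comparison for background UMIs, thinning left 0 of 34 with any of the 3 genes, which allows a share of up to 8.82%. At their full median depth of 51954.5 UMIs, 26.5% of them had Mcpt8, 20.6% Gzme and 14.7% Gzmd.

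Mcpt8 averaged 85.6 CPM in muscle differentiation-like cells and 365 CPM in progenitor-like cells, a 4.26-fold lower level (ratio 0.235, 0.218 to 0.253). Gzme averaged 16.0 CPM in differentiation-like cells and 134 CPM in progenitor-like cells, 8.40-fold lower (ratio 0.119, 0.0997 to 0.141). Gzmd averaged 6.27 CPM in differentiation-like cells and 67.3 CPM in progenitor-like cells, 10.7-fold lower (ratio 0.0932, 0.0696 to 0.122). All 3 passed the size rule downwards, as did 16.6% of 9194 genes (8.49% passed it upwards), so such a fall was common among measured genes. Pax7, the satellite cell factor, stood at 148 CPM in differentiation-like and 1368 CPM in progenitor-like cells, 9.23-fold lower. The clustering left out the 3 genes, their locus, and the myogenic and cell cycle lists.

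The differentiation-like clusters differed among themselves. Cluster 3 (178 cells), led by contractile genes such as Mybpc1, Sln and the perinatal myosin gene Myh8, and with 1158 CPM of the differentiation factor Myog and 40.2 CPM of Pax7, held 21.2 CPM of Mcpt8, 2.80 CPM of Gzme and 0.400 CPM of Gzmd (2 UMIs). Cluster 2 (142 cells), with 1541 CPM of Myog but still 309 CPM of Pax7, held 180, 35.7 and 15.04 CPM of the same genes. Both clusters expressed Myog, and cluster 2, which had more Pax7, had more of all 3 proteases. Another differentiation-like cluster of 27 shallow cells, with a median of 1498 UMIs, went against that order. It had 52.5 CPM of Pax7 from 3 UMIs but 140 CPM of Mcpt8 from 8 UMIs (60.5 to 276), above the interval of cluster 3 (17.3 to 25.6), and 0 UMIs of Gzme and Gzmd, which at its depth allows up to 52.5 CPM of each.

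Among progenitor-like cells the highest levels lay in cluster 4 (595 cells), in which the proliferation gene Mki67 was at 14.7 CPM. Mcpt8 stood at 562 CPM in cluster 4 and 271 CPM in the other 1143 progenitor-like cells (2.08-fold, 2.01 to 2.14). Gzme stood at 221 CPM in cluster 4 and 92.6 CPM in the others (2.39-fold, 2.27 to 2.52). Gzmd stood at 108 CPM in cluster 4 and 48.1 CPM in the others (2.24-fold, 2.08 to 2.41). All 3 passed the size rule upwards here, where 0.917% of 8947 genes did and 3.48% passed it downwards. Pax7 differed little, at 1515 CPM in cluster 4 and 1298 CPM in the others. The main cycling clusters, cluster 1 (709 cells, Mki67 at 343 CPM) and cluster 5 (387 cells, led by the mitotic genes Cdc20 and Ccnb2), held 276 and 234 CPM of Mcpt8, 99.3 and 81.5 CPM of Gzme, and 48.9 and 52.9 CPM of Gzmd. For Gzmd the intervals of clusters 1 and 5 overlapped.

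A small progenitor-like cluster parted Mcpt8 from the granzymes. In cluster 9 (47 cells), led by Nefl, Nptx1 and Krt18, Mcpt8 was at 380 CPM, against 265 CPM in the 1096 progenitor-like cells outside clusters 4 and 9 (1.43-fold, 1.31 to 1.57). Gzme was at 48.8 CPM in cluster 9 and 94.6 CPM in those cells, a ratio of 0.515 (0.397 to 0.659). Gzmd was at 8.26 CPM in cluster 9, from 11 UMIs, and 49.96 CPM in those cells, a ratio of 0.165 (0.0823 to 0.297). Cluster 9 thus had the second-highest Mcpt8 level of all clusters but low Gzmd.

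The proportions of the genes differed between cell states. Progenitor-like cells held 2.72 Mcpt8 UMIs per Gzme UMI (2.64 to 2.80), whereas differentiation-like cells held 5.36 (4.46 to 6.49), cluster 3 held 7.57 (4.32 to 14.3) and cluster 9 held 7.78 (6.004 to 10.2). The fibroblast-like cells held 2.25 (0.931 to 5.98), an interval that includes the progenitor-like value. Gzme UMIs per Gzmd UMI were 1.99 in progenitor-like cells (1.91 to 2.08), 5.91 in cluster 9 (3.09 to 12.4) and 1.54 in cluster 5 (1.35 to 1.75).

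The remaining cells divided as sharply. Unnamed cluster 6 (181 cells, median 3782 UMIs) held 347 CPM of Mcpt8, 79.4 CPM of Gzme and 37.9 CPM of Gzmd, and its Mcpt8 interval (308 to 390) overlapped that of cluster 9. Unnamed cluster 8 (65 cells, median 3520 UMIs), led by Crabp1 and Serpinb2, held 12.2 CPM of Mcpt8 from 4 UMIs, 2 Gzme UMIs and no Gzmd. Fibroblast-like cluster 10 held 9.47 CPM of Mcpt8, 4.21 CPM of Gzme and 3.16 CPM of Gzmd. The Mcpt8 order of clusters was 4, 9, 6, 1, 5, 2, 7, 3, 8, 10, in which the intervals of neighbours 9 and 6, of 2 and 7, of 3 and 8, and of 8 and 10 overlapped.

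**Figure D2:**
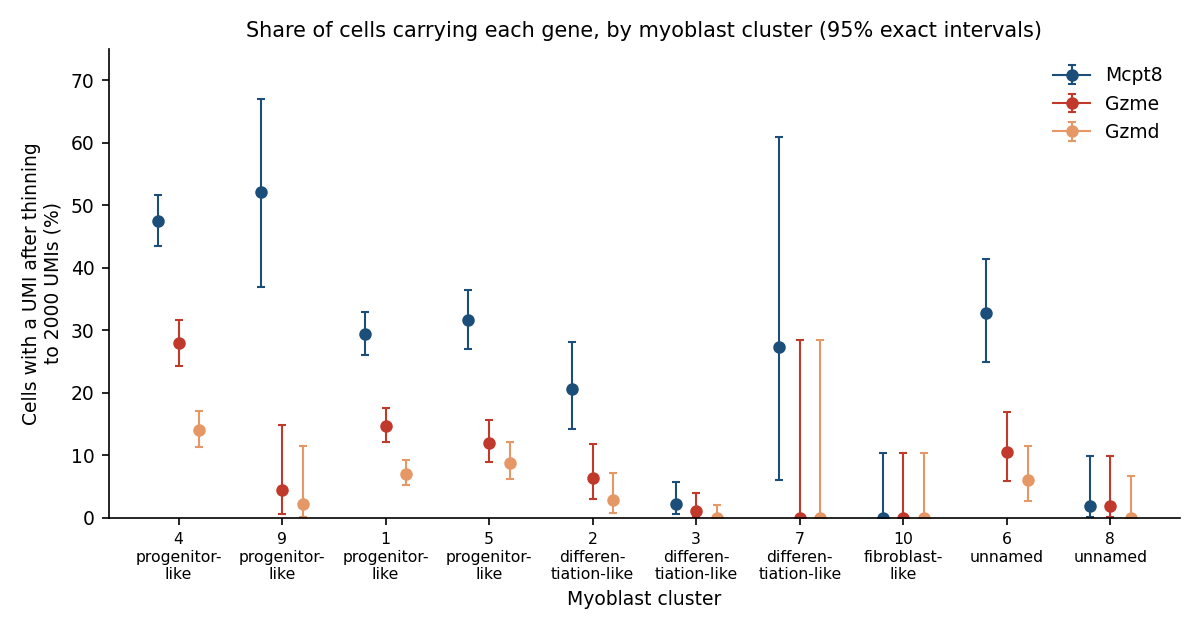
Share of myoblast cells with at least 1 UMI of Mcpt8, Gzme or Gzmd after thinning each cell to 2000 UMIs, by cluster, in percent with exact 95% binomial intervals. Clusters 4 and 9 have the highest Mcpt8 shares (47.6% and 52.2%), but Gzmd is found in 13.9% of cluster 4 and 2.17% of cluster 9.

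Expression was uneven within the progenitor-like cells too. At full depth Mcpt8 had a median of 5 UMIs per progenitor-like cell, 23 at the 90th percentile and 275 in the highest cell, and 15.7% of cells had none. The highest 174 of the 1738 cells held 44.8% of the Mcpt8 UMIs. Gzme had a median of 1 UMI, a maximum of 69 and 34.1% of cells at 0, and its highest 174 cells held 51.9% of its UMIs. Gzmd had a median of 0, a maximum of 34 and 60.4% of cells at 0, and its highest 174 cells held 64.0%.

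The 3 genes tended to be found in the same cells. After thinning, 46.4% of progenitor-like cells had at least 1 of the 3, 11.3% had 2 and 60 cells (3.46%) had all 3. Mcpt8 was present in 61.6% of progenitor-like cells with Gzme and 31.1% of those without it. Gzme was present in 47.0% of cells with Gzmd and 15.2% of those without it. Gzmd was present in 16.0% of cells with Mcpt8 and 6.01% of those without it. In cluster 4, 58.3% of cells had at least 1 of the genes, and with 5000 UMIs per cell the share of progenitor-like cells was 66.6%.

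**Figure D3:**
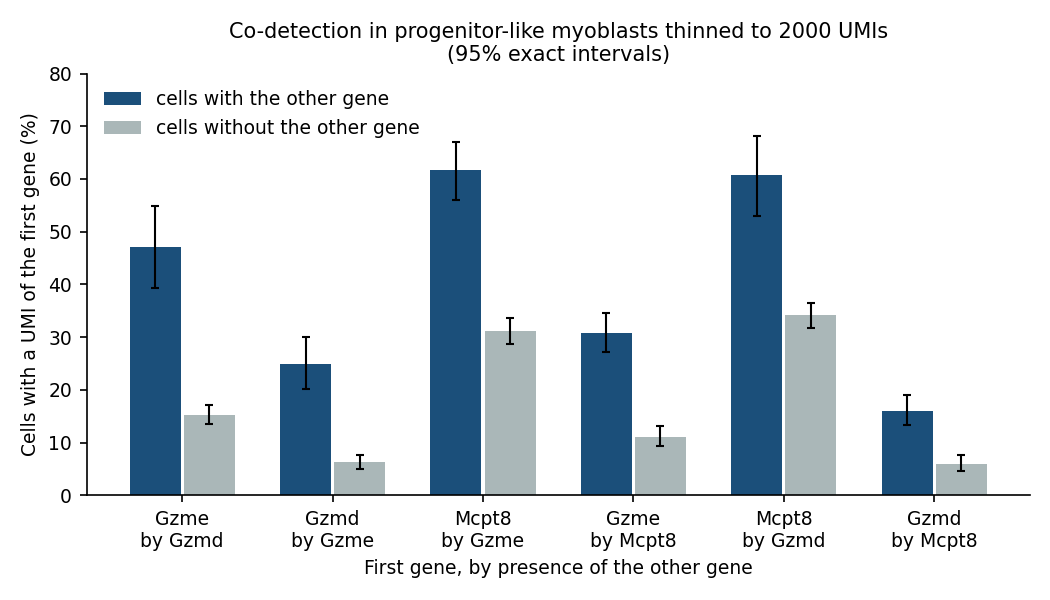
Share of progenitor-like myoblast cells with 1 of the genes, in percent after thinning to 2000 UMIs, in cells with (left bar of each pair) and without (right bar) another of them, with exact 95% binomial intervals. Gzme, for example, was present in 47.0% of cells with Gzmd and in 15.2% of cells without it.

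Across the 1738 progenitor-like cells at full depth, Pearson's r of log-normalised expression was 0.671 for Mcpt8 with Gzme, 0.652 for Gzmd with Gzme and 0.554 for Mcpt8 with Gzmd, over cells of 1 library that share its depth range. Among 10194 genes found in at least 10% of these cells, the other 2 family members ranked first for each gene. The genes most like all 3 after them were Spp1 (osteopontin; 0.531 with Mcpt8, 0.502 with Gzme, 0.363 with Gzmd), Sparc (a matrix glycoprotein; 0.451, 0.462 and 0.348) and Timp1 (a metalloproteinase inhibitor; 0.414, 0.430 and 0.341). With Pax7, r was only 0.0870 for Mcpt8, 0.0819 for Gzme and 0.0411 for Gzmd. Over all 2365 cells, which include the differentiated ones, it was 0.389, 0.329 and 0.234. Progenitor-like cells thus had more of the proteases than differentiated cells, but among progenitor-like cells Pax7 level and protease level were nearly unrelated. The lowest r belonged to the mitochondrial ribosomal RNA mt-Rnr2, at -0.37 with Mcpt8, -0.39 with Gzme and -0.31 with Gzmd.

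Carriers, the progenitor-like cells with at least 1 UMI of a gene after thinning, were set against the other progenitor-like cells over all genes at full depth. The 637 Mcpt8 carriers and the 1099 others had median depths of 24170 and 24169 UMIs, and median mitochondrial shares of 5.606% and 6.003%. Of the carriers, 355 had exactly 1 Mcpt8 UMI after thinning. Cluster 4 held 44.4% of the carriers and 28.4% of the others. By the size rule 0.102% of 8795 genes were higher in Mcpt8 carriers, which is 9 genes with Mcpt8 itself among them, and 0.0114% were lower. Both granzymes were among the 9. Gzme stood at 240 CPM in Mcpt8 carriers and 72.6 CPM in the others (3.30-fold, 3.12 to 3.48). Gzmd stood at 124 CPM in Mcpt8 carriers and 34.4 CPM in the others (3.59-fold, 3.32 to 3.88).

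Beyond the family, the Mcpt8 carriers had more of Pde7b, a cAMP phosphodiesterase, at 157 CPM in carriers and 49.6 CPM in the others, a ratio of 2.97 after adding 5 CPM to both. Mgp, an inhibitor of matrix calcification, stood at 588 CPM in carriers and 289 CPM in the others, a ratio of 2.02. Sorcs1, a sorting receptor, and Gpx3, a secreted glutathione peroxidase, had ratios of 1.90 and 1.74. C77080 had the lowest ratio, at 36.8 CPM in carriers and 75.2 CPM in the others (1.92-fold lower after adding 5 CPM to both). After it came the histone gene H1f3 and, further on, Uhrf1, a cofactor of DNA methylation at replication, which were 1.45-fold and 1.37-fold lower. The muscle factors differed less, with a ratio of 1.07 for Pax7 (1423 CPM in carriers and 1335 CPM in the others), 1.07 for Myod1 and 0.794 for Myog.

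The 407 carriers of Gzmd or Gzme were set against 1329 others in the same way. Cluster 4 held 49.4% of these carriers and 29.6% of the others. By the size rule 0.170% of 8802 genes, with Gzmd, Gzme and Mcpt8 among them, were higher in the carriers and 0.0227% were lower. Mcpt8 stood at 736 CPM in these carriers and 249 CPM in the others, a ratio of 2.92 after adding 5 CPM. Pde7b stood at 195 CPM in these carriers and 56.1 CPM in the others, a ratio of 3.27. Sorcs1 had a ratio of 2.38, Pcsk2 (a prohormone convertase) 2.08 and Mgp 2.07. Cluster 4 was led by Pde7b and Pcsk2, and what part that cluster has in these ratios was not tested.

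**Figure D4:**
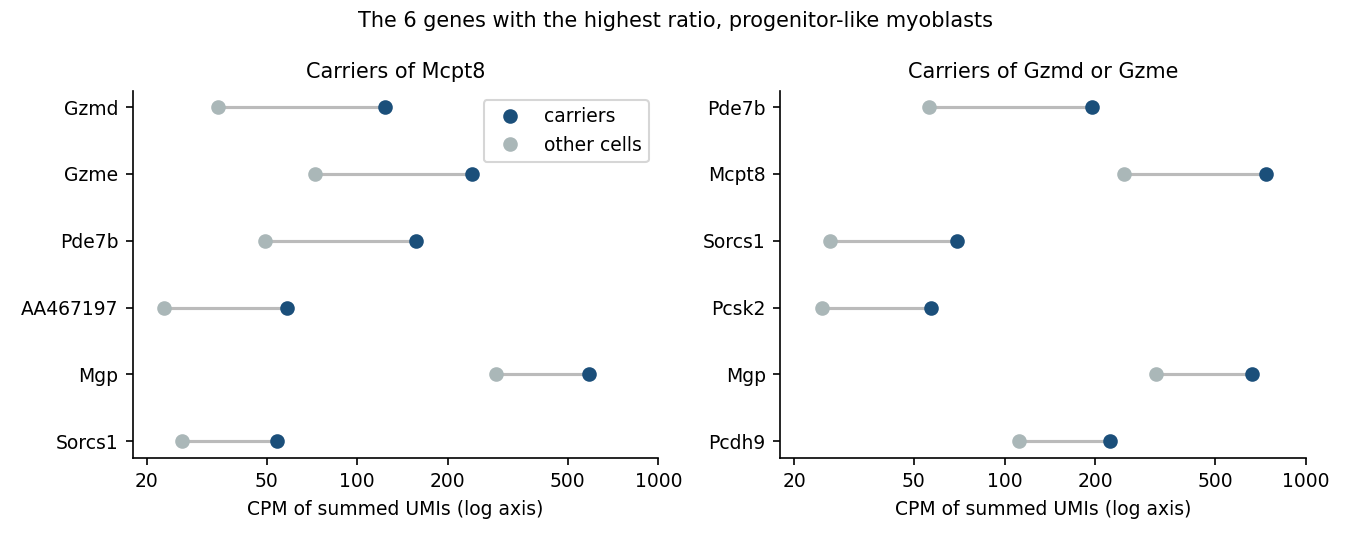
The 6 genes with the highest ratio in carriers of Mcpt8 (left panel) and of Gzmd or Gzme (right panel) among progenitor-like myoblast cells, with the level in carriers (dark points) and in the other cells (grey points) in CPM on a log axis. Pde7b stands at 157 CPM in Mcpt8 carriers and 49.6 CPM in the others, and at 195 CPM in Gzmd or Gzme carriers and 56.1 CPM in the others.

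Cycling cells, those with at least 2 UMIs of G2/M genes after thinning, were fewer among progenitor-like carriers. The cycling share was 48.2% of Mcpt8 carriers and 61.6% of other progenitor-like cells, 44.0% of Gzme carriers and 59.5% of the others, and 47.0% of Gzmd carriers and 57.7% of the others. The differences, with counting error alone, were -13.4 percentage points (-18.3 to -8.47), -15.5 points (-21.6 to -9.27) and -10.7 points (-18.8 to -2.47). Over all myoblast cells, the differences were -2.15 points (-6.60 to 2.33) for Mcpt8, -5.76 points (-11.5 to 0.0976) for Gzme and -2.19 points (-9.89 to 5.69) for Gzmd. Those 3 intervals include 0. In the 502 cells left by a stricter quality filter, the all-cell difference turned positive for Mcpt8, at 4.58 points, and for Gzmd, at 8.51 points. The sign also turned for Mcpt8 with 5000 UMIs per cell (2.17 points) and for Gzmd under a second thinning draw (2.72 points), so no direction is read from the all-cell differences of these genes.

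The rest of the chymase locus was near silent. Of its 15 genes, all matched by symbol, the 3 proteases were the ones that reached 10 CPM in any library. Next to them in gene order (RefSeq, GRCm38.p6) lie Mcpt4 with 1 UMI in myoblasts, Ctsg (cathepsin G, between Mcpt8 and Gzme) with 2 UMIs, and Gzmg with 1 UMI. Gzmn had 5, Gzmf 3, Gzmc 19 and Gzmb, the main granzyme of cytotoxic T cells, 3 UMIs in the 2365 cells. Cma2, a chymase gene, stood at 1.93 CPM in MPC and 2.32 CPM in myoblasts. The genes flanking the locus differed far less between the cultures. Khnyn was at 12.6 CPM in MPC and 6.27 CPM in myoblasts, Sdr39u1 at 6.29 CPM in MPC and 8.87 CPM in myoblasts, and Atp12a at 4.77 CPM in MPC and 4.62 CPM in myoblasts.

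**Figure D5:**
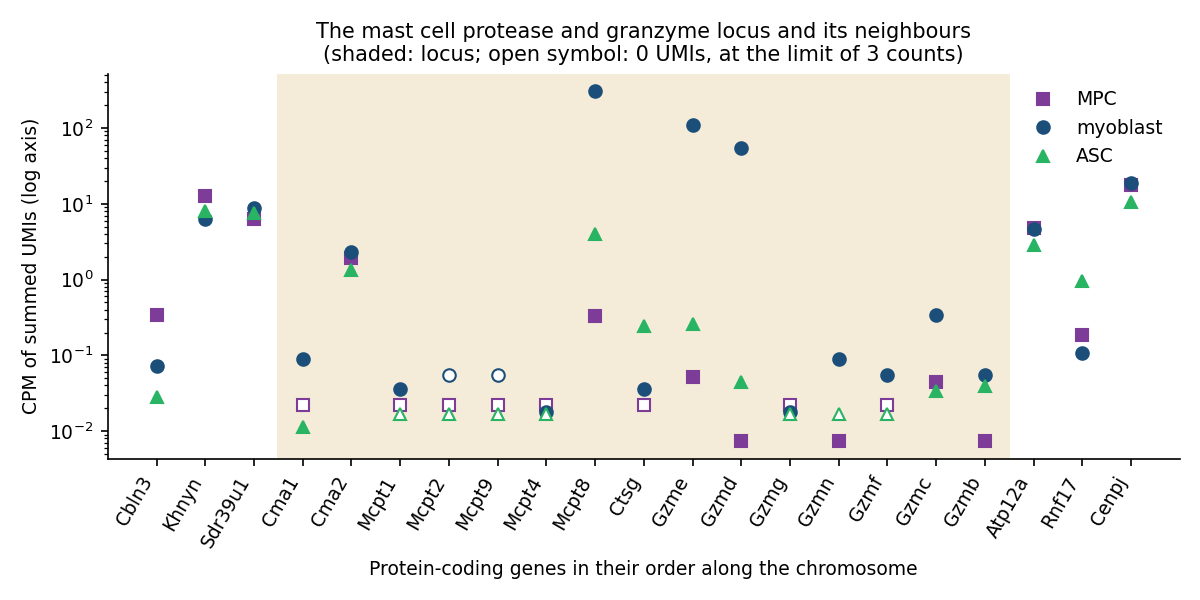
Level of each gene across the chymase locus (shaded) and of its flanking genes, in gene order, in MPC, myoblast and ASC, in CPM on a log axis; open symbols stand for 0 UMIs at the limit of 3 counts. In myoblasts Mcpt8, Gzme and Gzmd stand at 307, 110 and 54.9 CPM, and every other locus gene is below 3 CPM.

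The granule partners particular to immune cells were low in myoblasts, and the general lysosomal ones stood at higher levels there. Serglycin (Srgn), which packs granule proteases, was at 0.653 CPM, and perforin (Prf1), which lets granzymes into target cells, at 0.127 CPM. The lysosomal genes Lamp1, Ctsl and Ctsb were at 193, 178 and 131 CPM in myoblasts, and at 642, 1396 and 2922 CPM in ASC. Ctsl and Ctsb were also higher in MPC (307 and 239 CPM) and fiSC (587 and 148 CPM) than in myoblasts. Lamp1 was lower in MPC (115 CPM) and fiSC (97.6 CPM). Cathepsin C (Ctsc), which activates the granzymes, was at 19.6 CPM in MPC and 2.88 CPM in myoblasts, and Ctsh, a lysosomal aminopeptidase, at 6.83 CPM in MPC and 32.4 CPM in myoblasts. In this list of 10, 5 were measured, of which 1 was higher and 1 lower in MPC, with a median log2 ratio of 0.77 against 0.06 over all genes, of which 6.85% were higher and 6.44% lower. Of 14 inhibitors of such proteases 5 were measured, and 3 were lower in MPC, with a median of -1.44. Among them were Serpinb6a (97.3 CPM in MPC and 273 CPM in myoblasts) and Serpinb2 (0.0736 CPM in MPC and 19.8 CPM in myoblasts). Within the myoblast library Serpinb2 stood at 308 CPM in fibroblast-like cluster 10 and 356 CPM in unnamed cluster 8. In progenitor-like myoblast cells it stood at 8.50 CPM. Of 8 other granzyme and mast protease genes 0 were measured by this rule, and the most abundant was Gzmm at 2.59 CPM in myoblasts. For MPC over myoblasts the size rule called 7 of 11 measured culture stress and senescence genes downwards and 2 upwards (median log2 ratio -1.28), against 6.44% and 6.85% of all measured genes. It called 5 of 12 immediate early genes upwards and 1 downwards (median 0.78), against 6.85% and 6.44% of all measured genes.

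Markers of the immune cells known for these proteases were at or near 0. Of 13 basophil markers, Fcer1a, Ms4a2, Il13, Prss34 and Osm had no UMI in the 2365 myoblast cells, and the summed level was 31.3 CPM, of which Gata2 gave 19.8. That sum was 28.4 CPM in MPC, 105 CPM in ASC and 11.3 CPM in fiSC. Of 11 mast cell markers, Kit, Tpsab1, Tpsb2, Mrgprb1, Mrgprb2, Ms4a2 and Fcer1a had none, and the sum was 0.635 CPM. Of 15 T or NK cell markers, Cd3e, Nkg7 and Cd2 had none, and the sum was 26.3 CPM, of which the T cell receptor constant gene Trbc2 gave 25.2. Mcpt8 carriers summed 33.0 CPM of basophil markers against 32.3 CPM in the other progenitor-like cells, 0.872 against 0.689 CPM of mast cell markers, and 3380 against 3110 CPM of myogenic progenitor markers. T or NK markers summed 42.5 CPM in carriers and 26.4 CPM in the others, nearly all from Trbc2 (41.3 and 25.3 CPM). Fibroblast markers summed 290 CPM in carriers and 217 CPM in the others, and macrophage markers 53.8 and 71.8 CPM. What part these differences have in the carrier contrast was not tested.

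The few MPC UMIs lay mostly outside the progenitor-like cells. The 5142 progenitor-like MPC cells held 0 Mcpt8, 0 Gzmd and 1 Gzme UMI, so within progenitor-like cells Mcpt8 was at least 9138-fold and Gzmd at least 1686-fold lower in MPC than in myoblasts. Of the 45 Mcpt8 UMIs, 43 lay in the fibroblast-like cluster of 389 cells, in 8 cells, and the highest pair of cells held 33 of them. Of those 8 cells 4 had no Pax7 UMI, as did 177 of the 381 other cells of the cluster. In all 11847 deposited MPC barcodes there were 67 Mcpt8 UMIs, of which 21 lay in 16 barcodes shared with the myoblast library. A filtered MPC barcode with 632 UMIs, 5 of them Mcpt8, was the same barcode as the myoblast cell with the maximum of 275 Mcpt8 UMIs. Without the shared barcodes the level in retained MPC cells was 0.332 CPM, against 0.331 CPM with them.

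Injury-activated cells carried Mcpt8 at a low level in the myogenic part of the sort. It stood at 5.47 CPM in the 2063 progenitor-like ASC cells (517 UMIs, 5.01 to 5.96) and 0.113 CPM in the 2657 macrophage-like cells (5 UMIs, 0.0367 to 0.264). The 1714 unnamed ASC cells held 4.70 CPM (187 UMIs, 4.05 to 5.42). Of these UMIs 181 lay in ASC cluster 9 (600 cells, Myog at 69.1 CPM and Pax7 at 126 CPM), at 5.57 CPM of Mcpt8. After thinning, 23 of 2053 progenitor-like cells had Mcpt8 (1.12%, 0.711 to 1.68) and 0 of 2647 macrophage-like cells did, which allows up to 0.113%. At full depth, medians of 46903 and 15957 UMIs, the shares were 16.8% and 0.188%. Within the progenitor-like ASC clusters Mcpt8 was lowest where Pax7 was highest, at 1.25 CPM in cluster 8 with 359 CPM of Pax7. It was at 4.95 to 6.87 CPM in clusters 3, 4 and 7 with 72.6 to 136 CPM of Pax7. Gzme stood at 0.370 CPM in progenitor-like ASC cells (35 UMIs) and Gzmd at 0.0423 CPM (4 UMIs). Compared within progenitor-like cells, Mcpt8 was 66.7-fold higher in myoblasts than in ASC (61.1 to 72.9).

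Among 3495 genes with at least 50 CPM in myoblasts, ranked by myoblast level over the highest of the other libraries after adding 1 CPM, Gzme ranked 1st with a ratio of 87.9, Mcpt8 2nd with 62.2 and Gzmd 4th with 53.5. Lingo2, a neuronal membrane protein gene at 3.19 CPM in MPC and 235 CPM in myoblasts, was 3rd with 56.4. The next was Gm42674 at 17.2, followed by Sct, which encodes the hormone secretin, at 16.9 (27.96 CPM in MPC and 490 CPM in myoblasts), Ano5 at 14.1 and Alox5, the leukotriene-forming lipoxygenase, at 13.7. The ranking rests on the same library levels by which the 3 proteases were chosen, so their ranks are a description.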

How the data were processed

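Single-cell RNA profiles of 4 libraries (MPC, myoblast, ASC, fiSC; 1 per group by its label) were used. The authors deposited raw UMI counts per gene and barcode, aligned with STAR 2.7.10b to GRCm39, per the submitters' processing notes; further settings are not given in the sources used here. Retained UMIs per library were 135956672, 55139531, 179085373 and 20031950. Barcodes under 1000 UMIs or 500 genes, or above 10% mitochondrial UMIs, were removed. Scrublet's own threshold was used for ASC; elsewhere it marked under 0.5% of barcodes, so the highest scores were removed at 0.8% per 1000 cells (799, 47, 297 and 59 cells in the same order). Cells of each library were clustered (Scanpy 1.11.5, 2000 variable genes, 30 components, 15 neighbours, Leiden resolution 0.5) without the 3 genes, their locus and the cell cycle, replication, myogenic, mitochondrial and EGFP genes. Clusters were named by the marker list with the highest summed level. A cluster stayed unnamed if another list had more of its 10 leading genes, or if it was far shallower than its library and its own list had none. The highest list was myogenic progenitor in unnamed myoblast cluster 6 and MPC cluster 4, and macrophage in unnamed ASC cluster 6. Cdkn1c was dropped from naming after its MPC level was seen. Other clusterings and names would shift the class values.

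UMIs were summed per library, class or cluster and divided by total UMIs (CPM). These 3′ counts were not scaled by length. Intervals (SciPy 1.17.1) are exact Poisson for levels, exact conditional binomial for ratios and Clopper-Pearson for shares, cover counting error only, and treat UMIs as independent. The limit of 3 UMIs for a count of 0 is tighter than these exact intervals, which for myoblast over fiSC start at 1669-fold for Mcpt8, 597-fold for Gzme and 298-fold for Gzmd. A measured gene has at least 10 CPM in the higher group. Thinning draws 2000 UMIs per cell without replacement with a fixed seed. Genes named are the 3 proteases, up to 4 per list by myoblast level with markers at 0, the 8 most correlated per gene, the 10 highest by library ratio and the 10 highest and lowest by carrier ratio; flanking genes, cluster leaders and Mki67 are named as context, and some genes the rule picks are not reported here. The steps were checked on simulated counts. Promoter and transcript sequences come from RefSeq (GRCm38.p6) and GENCODE M21; 13 of the 15 locus genes had a promoter entry. The 3 genes, the gene lists and the markers were chosen with earlier results of these data known. Alternatives changed the filter, doublets, cell class, resolution, thinning, added CPM and scaling (TMM, edgeR 4.0.16 in R 4.3.3).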

Additional observations from a re-analysis of the deposited data

Results flagged for a closer look

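The myoblast barcodes that the cell filter or the doublet step left out, which enter no comparison above, also held UMIs of all 3 genes. In these 628 barcodes Mcpt8 stood at 166 CPM (875 UMIs), Gzme at 47.2 CPM (249 UMIs) and Gzmd at 26.9 CPM (142 UMIs), each below the level of the retained cells and above the limit that a count of 0 allows. The 169 of them with under 1000 UMIs held 18 Mcpt8 UMIs (152 CPM, 90.3 to 241), 2 Gzme UMIs and no Gzmd UMI.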

How the results depend on the processing

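Of 117 alternative values of 21 results, 81 stayed within counting error or, for counts of genes, within 1.5 times, and 36 moved. The 3 library contrasts kept their direction under every alternative run. For MPC over myoblast, progenitor-like cells alone gave log2 ratios of -13.16 for Mcpt8 (a bound) and -13.30 for Gzme. Adding 5 CPM to both sides gave -5.87 for Mcpt8, -3.58 for Gzmd and -4.51 for Gzme. For myoblast over ASC, Mcpt8 was at 6.06 in progenitor-like cells alone and 5.99 with TMM factors, and with 5 CPM added Mcpt8, Gzmd and Gzme were at 5.12, 3.57 and 4.45. For myoblast over fiSC the same addition gave 5.96, 3.58 and 4.52. The share of myoblast cells with a UMI of Mcpt8, Gzmd and Gzme was 50.4%, 15.3% and 29.4% at 5000 UMIs per cell, 13.9%, 1.66% and 4.85% when 2 UMIs were asked for, and 35.7%, 10.4% and 19.1% in the 502 cells of the strict filter (2000 UMIs, 1000 genes, 5% mitochondrial UMIs as limits). The cycling share of carriers minus others moved to 4.58 (Mcpt8) and 8.51 (Gzmd) percentage points under that filter, was 2.17 (Mcpt8) at 5000 UMIs and 2.72 (Gzmd) in a second thinning draw, and moved to -13.4, -10.7 and -15.5 (Gzme) in progenitor-like cells alone. For differentiation-like over progenitor-like cells, log2 ratios of Mcpt8, Gzmd and Gzme were -3.13, -4.59 and -4.47 at resolution 0.2, and -4.02, -5.53 and -5.28 under the strict filter. Mcpt8 was at -1.96 at resolution 1, and with doublets kept Mcpt8 was at -1.90 and Gzmd at -2.97. The cause of these shifts was not tested. No paired analysis was possible because each group is 1 library. A second thinning draw and MPC without the barcodes it shares with the myoblast library were added after seeing the data. Depth limits Gzmd most, with 1 UMI in MPC and 8 in ASC.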

Other observations

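The T cell receptor constant gene Trbc2 had the same kind of library pattern as the proteases. It stood at 0.00736 CPM in MPC (1 UMI), 25.2 CPM in myoblasts (1390 UMIs), 0.0893 CPM in ASC and 0.399 CPM in fiSC. Within the myoblast library it was at 0.591 CPM in differentiation-like cells and 31.2 CPM in progenitor-like cells, and at 60.04 CPM in cluster 9. The related constant genes Trbc1 and Trac were at 0.0907 and 0.0725 CPM in myoblasts. Trbc2 was chosen for mention after its values were seen.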
